A study of Mus musculus with 7 samples.

Results

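The potassium channel genes described here were the 93 of 27998 genes in the count table whose mouse symbol begins with Kcn, antisense and overlapping transcripts left out. They were chosen by name and not by their values, and they cover the inward rectifier, leak (K2P), voltage-gated, and calcium- and sodium-activated channels together with their auxiliary subunits. The study asked whether oligodendrocyte lineage cells (OLCs) of dorsal and ventral embryonic origin differ in the adult mouse brain, and whether ventral cells that take over the cortex after loss of the dorsal lineage stay different. It did so with single-cell RNA sequencing of sorted cells at P90 (11 to 14 weeks), on a mixed C57BL/6-B6CBA background. The labels give the tissue as motor and cingulate cortex, whereas the study's methods name the neocortex and a dissection of the corpus callosum, so the region is uncertain. There was 1 library for each of 3 groups. Control dOLCs were TdTom+ cells of Emx1-Cre:Sox10-GFP-TdTom mice, in which Cre recombination in the dorsal Emx1 lineage switches a Sox10 reporter from GFP to TdTom. Control vOLCs were the GFP+ cells of the same genotype, that is, cells without recombination. Ectopic vOLCs were GFP+ cells of Emx1-Cre:Sox10-GFP-tdTom mice that also carried Sox10-GFP-DTA, in which Emx1 lineage cells that switch on Sox10 also make diphtheria toxin A and are lost. All 3 groups carried Emx1-Cre and the Sox10 reporter, the sort separated cells by recombination rather than by origin itself, and each genotype came from more than 1 mouse, fewer for the ablated one, which are not told apart in the files. Each group is therefore 1 sample, no test between groups was possible, and the 95% intervals given with levels and ratios cover counting error only.

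Potassium channels set the resting membrane potential of glial cells and carry the outflow of potassium that ends an electrical response. Oligodendrocyte precursor cells (OPCs) are known for voltage-gated A-type and delayed rectifier currents and receive synaptic input from neurons, whereas mature oligodendrocytes (MOLs) lose most voltage-gated currents and are dominated by inward rectifier and leak conductances. In white matter the inward rectifier encoded by Kcnj10 takes up the potassium that active axons release, and its loss in oligodendrocytes is known to impair potassium clearance.

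The channels of these families share the short stretch of the pore that selects potassium over sodium. The sequences below are 45-base coding windows around that selectivity filter, shown for 6 of the channels described here, and the 5 codons of the filter are in capitals. They were read from the GRCm38 genome on the coding strand, 5′ to 3′. The Kv1 members are Kcna1 (chr6:126642213-126642257, minus strand), Kcna6 (chr6:126738632-126738676, minus strand) and Kcna2 (chr3:107105209-107105253, plus strand). The inward rectifier Kcnj16 (chr11:111024889-111024933, plus strand) follows. For the leak channels, which carry 2 pore loops per subunit, the second loop is given for Kcnk13 (chr12:100061361-100061405, plus strand) and Kcnk1 (chr8:126025314-126025358, plus strand).
Kcna1: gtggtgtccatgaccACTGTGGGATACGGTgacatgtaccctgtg
Kcna6: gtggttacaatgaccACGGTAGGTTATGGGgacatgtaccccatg
Kcna2: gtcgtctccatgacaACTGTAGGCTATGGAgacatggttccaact
Kcnj16: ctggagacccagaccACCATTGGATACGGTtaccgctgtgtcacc
Kcnk13: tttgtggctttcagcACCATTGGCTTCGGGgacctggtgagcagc
Kcnk1: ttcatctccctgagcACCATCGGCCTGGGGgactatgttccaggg

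Kcna1 and Kcna6 matched at 35 of 45 bases of the window and at 65.5% of the aligned coding sequence, and 10 of the 15 filter bases were the same. Kcna1 and Kcna2 matched at fewer window bases, 31 of 45, and at more of the coding sequence, 72.4%. Kcna1 (chr6:126640397-126646384) and Kcna6 (chr6:126708329-126740674) are neighbors on the minus strand of chromosome 6, as are Kcnj16 (chr11:110968033-111027968) and Kcnj2 (chr11:111066164-111076821) on the plus strand of chromosome 11. The assay reads the 3′ ends of transcripts and was not directed at these windows.

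The cells and clusters used were those of the deposited annotation, and 5804, 925 and 2562 cells were kept from control dOLCs, control vOLCs and ectopic vOLCs. Median unique molecular identifiers (UMIs, 1 per captured transcript) per cell were 3489.5, 5022 and 5318.5. OPCs and MOL2 carried the markers of their labels, whereas no markers were listed for MOL1, and Car2 and Apod of the 5 MOL5/6 markers were higher in MOL2. MFOLb held mature oligodendrocyte transcripts and also 3318 CPM (counts scaled to 1000000 UMIs per cell type and library) of summed astrocyte markers, against 250 CPM in MOL5/6 and 1020 CPM in OPCs, so its values are given apart. Neuron markers summed to between 7.53 and 11.1 CPM in MOL5/6 and between 105 and 129 CPM in OPCs, and 6 of 7 microglia markers were under 1 CPM in both. Cell barcode sequences shared between libraries numbered 9, 24 and 6 for the 3 pairs.

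Most potassium channel genes were barely detected. Of the 93 members, 18 had no UMI in the kept cells, 43 had between 1 and 49 UMIs and 32 had at least 50. A few genes carried most of the signal over all kept cells, but not in OPCs. Kcna1, Kcnj10, Kcnk13 and Kcna6 together held 52534 of the 64940 member UMIs, or 80.9%. In pooled OPCs these genes were at 97.1, 276, 30.6 and 86.7 CPM, against 2122 CPM for all members and 432 CPM for Kcnip3. The summed level of the members was higher in OPCs than in MOL5/6, the most common mature subtype, in each library. It came to 2083, 2523 and 2077 CPM in OPCs of control dOLCs, control vOLCs and ectopic vOLCs, and to 1572, 1570 and 1299 CPM in MOL5/6. Since the assay counts transcript ends, levels of different genes were compared per UMI without a length correction.

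The families differed in where that level lay. Auxiliary subunits summed to 550 CPM in OPCs and 19.2 CPM in MOL5/6, and the leak channels to 450 and 189 CPM. The Kv1 family went the other way, with 224 CPM in OPCs and 757 CPM in MOL5/6, whereas inward rectifiers were close, at 380 and 437 CPM. The Kv3 family went from 76.0 to 2.19 CPM, the Kv4 family from 190 to 2.44 CPM and the EAG family from 69.9 to 1.06 CPM across the same pair of cell types. The 10 electrically silent Kv members had no gene with 50 UMIs. Undetected members included Kcnj8 and Kcnj11, the pore subunits of the ATP-sensitive channels, and Kcnj1, Kcnj5, Kcnj15, Kcnk6, Kcnk9, Kcnk15, Kcnk16, Kcnk18, Kcna7, Kcna10, Kcnq1, Kcne1, Kcne3, Kcng3, Kcnmb1 and Kcnmb3.

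**Figure D1:**
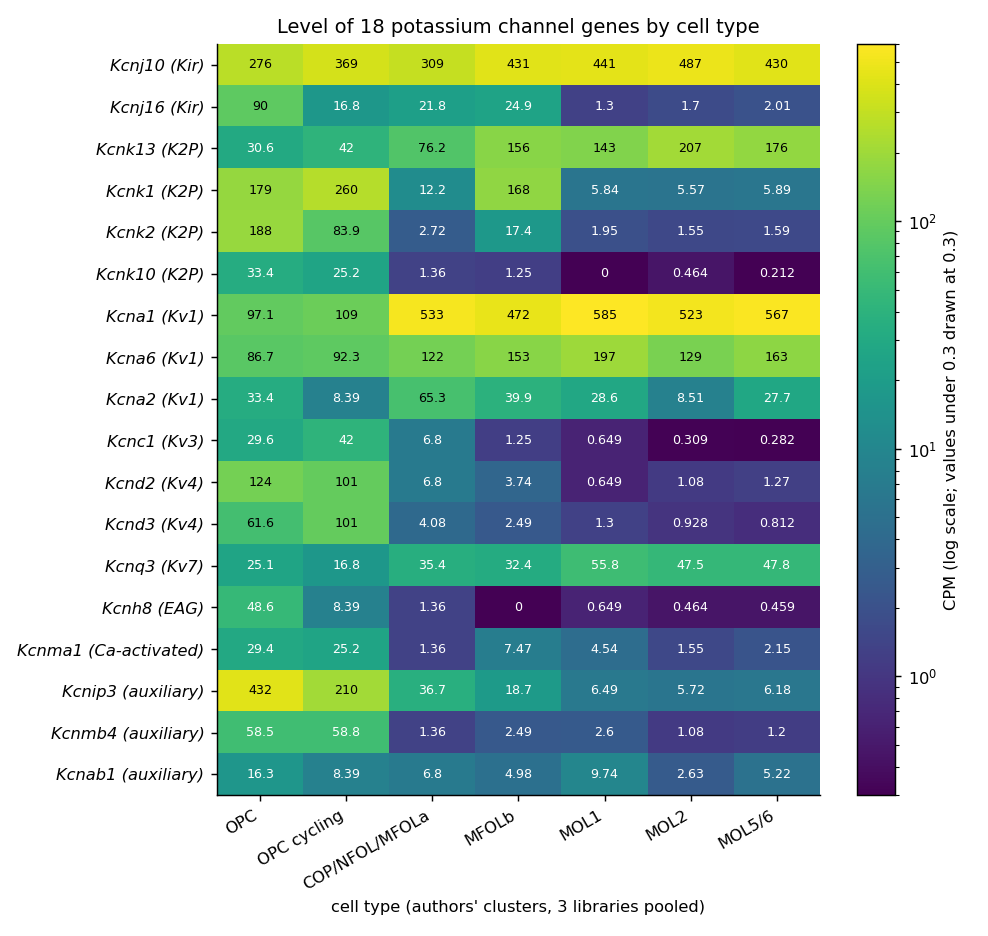
Level of 18 potassium channel genes (vertical axis) in 7 cell types (horizontal axis), as CPM of UMIs summed over the 3 libraries on a logarithmic color scale. Kcnj10 was high in every cell type, at 276 CPM or more, whereas Kcnip3, Kcnk2, Kcnd2 and Kcnd3 were high in OPCs and low in mature cells, and Kcna1 and Kcnk13 showed the opposite order.

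Mature oligodendrocytes had lower levels than OPCs of most channel genes and higher levels of a few. Of the 29 members with enough counts, 2 were at least 2-fold higher in MOL5/6 than in OPCs in each of the 3 libraries, namely Kcna1 and Kcnk13, and the share among all 11437 genes compared was 5.18%. In the other direction, 17 of the 29 members were at least 2-fold lower in MOL5/6 in each library, against 25.6% of all genes. Genes of the voltage-gated A-type current, of the acid- and stretch-sensitive leak and of calcium-dependent potassium currents were among them. Because the clusters were built from expression of the same genes, these are descriptions of the clusters and not tests.

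Among inward rectifiers, Kcnj10 was abundant at both stages and its partner was not. Kcnj10, which encodes Kir4.1, stood at 285, 372 and 225 CPM in OPCs of control dOLCs, control vOLCs and ectopic vOLCs, and at 452, 571 and 359 CPM in MOL5/6. The difference between stages was alike in the 3 libraries, with log2 ratios of 0.67, 0.62 and 0.67. Kcnj16 encodes Kir5.1, which forms no working channel alone and alters the pH response of Kir4.1 when they assemble together. It was at 78.5, 162 and 91.5 CPM in OPCs and at 2.56, 1.71 and 1.32 CPM in MOL5/6, a 44.7-fold higher pooled level in OPCs. Kcnj10 thus exceeded Kcnj16 far more in mature cells than in precursors. Kcnj2, the classical strong inward rectifier Kir2.1 and named here after its values were seen, was low throughout, at 0.947 CPM in pooled OPCs and 4.41 CPM in MOL5/6.

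The leak channels differed in member and in summed level. Kcnk2 encodes TREK-1, a leak channel opened by stretch and fatty acids, and stood at 169, 233 and 215 CPM in OPCs. In MOL5/6 it was at 2.29, 1.03 and 0.757 CPM, and the pooled OPC level was 119-fold higher. Kcnk1, or TWIK-1, went from 168, 190 and 200.5 CPM in OPCs to 6.87, 2.74 and 5.39 CPM. Kcnk10, the TREK-2 relative of Kcnk2, was at 33.4 CPM in pooled OPCs and 0.212 CPM in MOL5/6. All these were far lower in MOL5/6 than in OPCs. Kcnk13 encodes THIK-1, a leak channel inhibited by halothane, and was the leak channel of mature cells, at 172, 200 and 176 CPM in MOL5/6 against 36.9, 15.2 and 21.6 CPM in OPCs. Its pooled level was 5.77-fold higher in MOL5/6 (log2 ratio 2.53, 95% interval 2.28 to 2.79), and it was already at 76.2 CPM in the committed and newly formed cluster COP/NFOL/MFOLa.

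Kv1 genes held most of the voltage-gated level of mature cells. Kcna1 encodes Kv1.1, best known at the juxtaparanodes of axons, and was the most abundant member in pooled MOL5/6, at 584, 490 and 564 CPM there against 115, 68.4 and 68.2 CPM in OPCs. The difference was in place by the COP/NFOL/MFOLa cluster, where Kcna1 was at 533 CPM, and the pooled MOL5/6 level was 5.84-fold higher than that of OPCs (log2 ratio 2.55, 95% interval 2.40 to 2.69). Kcna6, which encodes Kv1.6, differed less, with 98.3, 78.5 and 64.0 CPM in OPCs and 203, 184 and 99.4 CPM in MOL5/6. Kcna2, which encodes Kv1.2 and can assemble with Kv1.1, had no increase from OPCs to MOL5/6, with log2 ratios of -0.07, -0.11 and -0.64. Its highest pooled level was in COP/NFOL/MFOLa, at 65.3 CPM. Thus the 3 Kv1 genes with at least 50 UMIs differed in their course.

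The A-type set was almost restricted to OPCs in these clusters. Kcnd2 and Kcnd3 encode the pore subunits Kv4.2 and Kv4.3, and Kcnip3 encodes KChIP3, a calcium-binding subunit of Kv4 channels that also acts as the transcriptional repressor DREAM. Kcnip3 was the most abundant member in OPCs, at 394, 527 and 484 CPM, and was at 7.61, 3.77 and 4.82 CPM in MOL5/6. Kcnd2 was at 121, 139 and 125 CPM in OPCs, and its pooled level there was 97.3-fold that of MOL5/6. For Kcnd3 the OPC levels were 65.1, 86.1 and 45.8 CPM and the pooled ratio was 75.9-fold. Dpp6 and Dpp10, membrane partners of Kv4 outside the Kcn symbols, followed the same order, with pooled levels of 316 and 49.3 CPM in OPCs and of 2.96 and 0.318 CPM in MOL5/6. In COP/NFOL/MFOLa the Kv4 genes were already at 6.80 and 4.08 CPM and Kcnip3 at 36.7 CPM.

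Of the other voltage-gated genes, Kcnc1 and Kcnh8 were OPC genes and Kcnq3 was not. Kcnc1 (a fast Kv3 channel) and Kcnh8 (an EAG relative) had pooled OPC levels of 29.6 and 48.6 CPM. Their pooled levels in OPCs exceeded those in MOL5/6 by 105-fold and 106-fold in the same order. Kcnq3, a subunit of muscarine-sensitive channels, was at 25.1 CPM in pooled OPCs and 47.8 CPM in MOL5/6, with log2 ratios over OPCs of 1.04, 0.24 and 1.28 in the 3 libraries.

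Calcium-activated channels followed the OPC pattern. Kcnma1, the pore of the large-conductance BK channel, was at 30.9, 32.9 and 25.0 CPM in OPCs, and Kcnmb4, its neuronal beta subunit, at 56.8, 55.7 and 63.2 CPM. Their pooled levels in MOL5/6 were 2.15 and 1.20 CPM. Kcnab1, a cytoplasmic beta subunit of Kv1 channels, differed less, at 16.3 CPM in OPCs and 5.22 CPM in MOL5/6. Kcne4 was chosen after its values were seen. It encodes an inhibitory subunit of Kv channels and had 25 of its 33 UMIs in COP/NFOL/MFOLa, where it was at 34.0 CPM, against 0.947 CPM in OPCs.

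Among members with few counts, all named here after their values were seen, the same order prevailed, with some exceptions. Kcnip1 and Kcnip2, further calcium-binding subunits of Kv4 channels, were at 16.3 and 13.3 CPM in pooled OPCs and at 0.635 and 0.671 CPM in MOL5/6. Kcnip2 was higher in COP/NFOL/MFOLa, at 23.1 CPM, where Kcnip1 had no UMI. The leak channel Kcnk3 (TASK-1), the ERG channel Kcnh2 and the G-protein-gated rectifier Kcnj3 stood at 11.1, 10.2 and 8.76 CPM in OPCs and under 1 CPM in MOL5/6. The small-conductance calcium-activated channel Kcnn1 was at 16.8 CPM in OPCs and 2.22 CPM in MOL5/6. In contrast, Kcnab2 was at 3.79 CPM in OPCs and 4.41 CPM in MOL5/6, and Kcnu1, a relative of the BK channel known from sperm, at 4.03 and 3.53 CPM. Pooled Kcnj2 and Kcnk5 went the other way, with log2 ratios of MOL5/6 over OPCs of 2.22 (0.83 to 4.12) and 1.12 (0.15 to 2.28). In control vOLCs, OPCs had 0 UMIs of either gene, and MOL5/6 had 16 of Kcnj2 and 12 of Kcnk5.

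**Figure D2:**
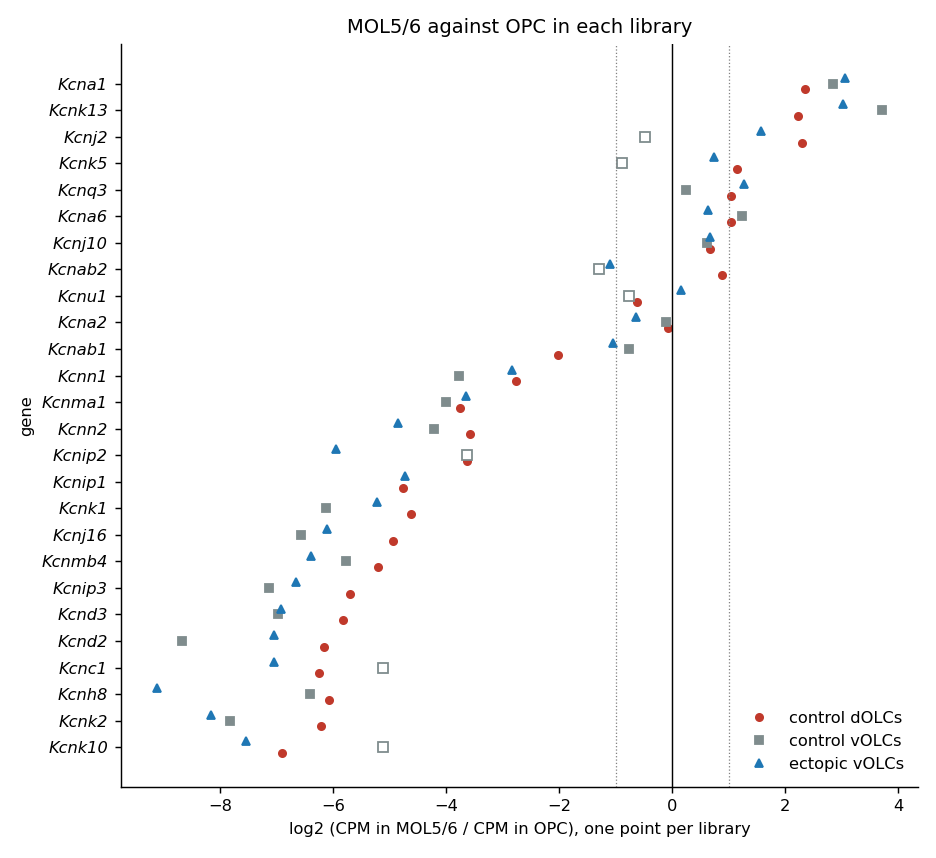
Log2 ratio of CPM in MOL5/6 over OPCs (horizontal axis) for 26 of the 29 potassium channel genes compared (vertical axis), 1 point per library. Hollow points had 0 UMIs in 1 cell type, which was set at 3 counts, and dotted lines mark 2-fold. Kcna1 and Kcnk13 lay to the right of the upper line in each library, and 14 of the genes drawn lay to the left of the lower line in each library.

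The plot of ratios by library shows that the libraries placed the members in much the same order. Kcnk13 had a wide spread, with log2 ratios of 2.22, 3.72 and 3.02. Transcripts of the other stage were present in each cluster and can be set beside these values. In pooled OPCs the mature markers Mog, Mag, Mal and Mobp summed to 15% of their MOL5/6 level, and Kcna1 and Kcnk13 were at 17.1% and 17.3% of theirs. Kcna6, Kcnq3 and Kcnj10 were at 53.3%, 52.6% and 64.3%. By library the mature markers in OPCs were at 19.7%, 8.36% and 7.78% of MOL5/6, Kcna1 at 19.6%, 14.0% and 12.1%, and Kcnk13 at 21.4%, 7.61% and 12.3%. The OPC levels of Kcna1 and Kcnk13 relative to MOL5/6 were thus within the range of the single markers, which ran up to 25.0% for Mobp in pooled OPCs. In the reverse direction, single OPC markers in MOL5/6 were at up to 1.07% of their OPC level. Kcnk2, Kcnd2, Kcnc1, Kcnk10 and Kcnh8 were at or under that value, whereas Kcnip3 was at 1.43%, Kcnj16 at 2.24% and Kcnk1 at 3.29%. What these low levels come from was not tested.

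The share of cells with a UMI showed the same contrast. Kcnip3 had a UMI in 64.7%, 76.0% and 75.5% of OPCs of control dOLCs, control vOLCs and ectopic vOLCs, and in 2.97%, 1.96% and 2.71% of MOL5/6. When every cell was thinned to 1000 UMIs, which left out 0 cells, the OPC shares were 31.9%, 36.4% and 36.1%. Median UMIs per cell were 2795, 3454 and 3421.5 in OPCs and 3491, 5069 and 5478.5 in MOL5/6.

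In MFOLb, leak and calcium-activated genes stood out together with astrocyte transcripts. Kcnk1 was at 168 CPM there, against 12.2 CPM in COP/NFOL/MFOLa and 5.84 CPM in MOL1. Kcnn2 and Kcnn3, small-conductance calcium-activated channels named after their values were seen, were at 31.1 and 11.2 CPM. The 157 cells were divided, after the data were seen, by whether they held a UMI of the astrocyte genes Aqp4 or Gja1. Kcnk1 was at 254 CPM (95% interval 211 to 303) in the 86 cells with such a UMI and at 37.7 CPM (19.5 to 65.9) in the 71 without. Kcnn2 was at 49.5 CPM (31.7 to 73.7) and 3.14 CPM. Kcnn3 was at 14.4 CPM (5.81 to 29.8) and 6.29 CPM (0.762 to 22.7), with overlapping intervals. In the reverse order, Kcna1 was at 375 and 619 CPM. Kcnk13 was at 146 CPM (114 to 185) and 170 CPM (128 to 222), with overlapping intervals. Kcnj10 was at 456 and 393 CPM. The median depth of the cells also differed, at 5861 and 4013 UMIs, and its part in the result was not tested.

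Between the mature subtypes MOL2 and MOL5/6 the main channels were alike. Pooled Kcnj10 was at 487 CPM in MOL2 and 430 CPM in MOL5/6, Kcna1 at 523 and 567 CPM, and Kcnk13 at 207 and 176 CPM. Of 19 members with enough counts, 3 were at least 1.5-fold lower in MOL2 in each of the 3 libraries (Kcna2 and Kcnab1 among them), against 1.88% of all genes. Kcna2 was at 9.49, 5.71 and 8.37 CPM in MOL2 and 34.1, 28.1 and 18.6 CPM in MOL5/6. A single member, Kcnk5, was at least 1.5-fold higher in MOL2 in each library, against 2.39% of all genes. Kcnk5 encodes the alkaline-activated leak channel TASK-2 and was at 10.1 CPM in pooled MOL2 and 4.62 CPM in MOL5/6, with log2 ratios of 1.14, 0.99 and 1.12.

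In MOL5/6, the Kv1 genes Kcna6 and Kcna2 were lower in ectopic vOLCs than in both control libraries, and Kcnj10 was lowest in ectopic and highest in control vOLCs. Here 7 of the 17 members compared between ectopic vOLCs and control dOLCs were at least 1.5-fold lower in the former, and 0 were as much higher. Among all genes compared, 19.9% were as much lower, 1.8% as much higher and 21.7% past the fold in either direction. The median log2 ratio was -0.35 over the members and -0.15 over all genes, and 14 of 17 members lay below 0, as did 64.6% of all genes. Against control vOLCs, 4 of 11 members were at least 1.5-fold lower and 1 was higher, where all genes gave 16.4% and 2.81%, or 19.3% in either direction. The 2 control libraries differed by that much in 4 of 14 members, 1 higher in control vOLCs and 3 lower, where all genes gave 4.12%, 5.6% and 9.72%. The comparisons share libraries, and the 76, 82 and 79 members that were not compared had fewer than 50 UMIs in the pair.

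**Figure D3:**
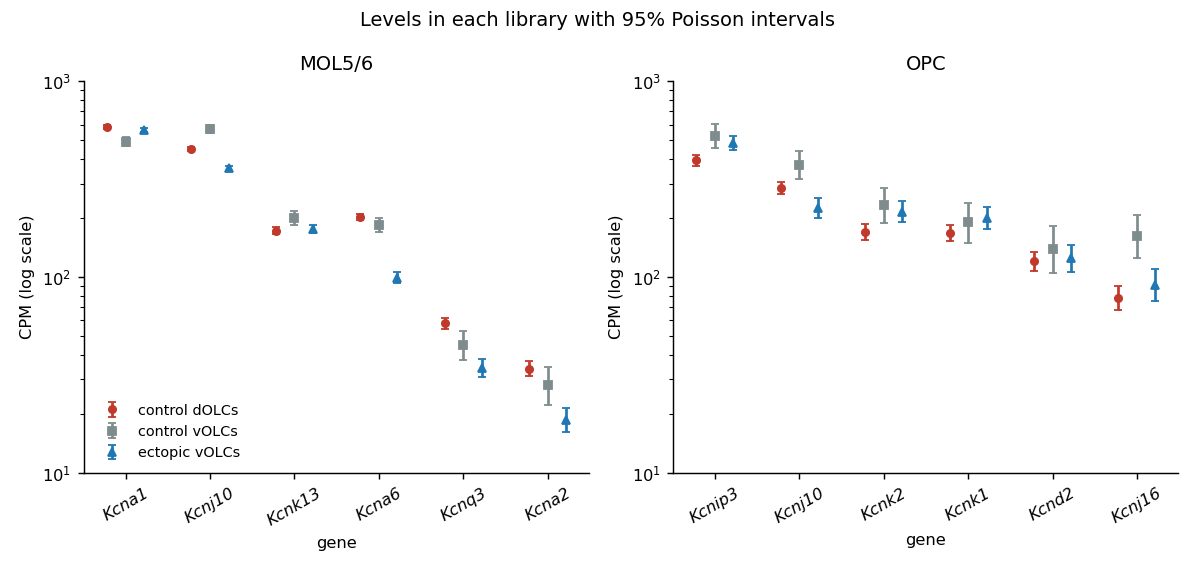
CPM (logarithmic vertical axis) of potassium channel genes (horizontal axis) in each of the 3 libraries, for 6 genes in MOL5/6 and 6 in OPCs. The 95% Poisson intervals cover counting error only. Kcna6 in MOL5/6 stood at 203 and 184 CPM in the control libraries and at 99.4 CPM in ectopic vOLCs, and Kcnj16 in OPCs was highest in control vOLCs, at 162 CPM.

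Kcna6 had the largest of these differences among the abundant members. Control dOLCs had 203 CPM (95% interval 196 to 211) in MOL5/6 and control vOLCs had 184 CPM (169 to 201), against 99.4 CPM (93.5 to 105.6) in ectopic vOLCs, from 3017, 538 and 1051 UMIs. The plot of levels by library shows the ectopic value clear of both control intervals, which lay close to each other. Ectopic vOLCs gave a log2 ratio of -1.03 (-1.13 to -0.93) to control dOLCs and of -0.89 (-1.04 to -0.74) to control vOLCs. The control libraries differed by -0.14 (-0.28 to -0.01). In MOL2 the order was the same, with 145, 128 and 91.5 CPM.

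Part of that ratio went with the makeup of MOL5/6. Pooled Kcna6 was at 239 and 227 CPM in MOL5/6b and MOL5/6c and at 106 and 115 CPM in MOL5/6a and MOL5/6d. Subclusters b and c held 76.1% of the MOL5/6 cells of control dOLCs, 51.5% of those of control vOLCs and 5.70% of those of ectopic vOLCs. Within subclusters the ectopic level remained below both controls but by less. Kcna6 was at 118, 140 and 91.8 CPM in MOL5/6a of control dOLCs, control vOLCs and ectopic vOLCs, and at 140, 165 and 98.1 CPM in MOL5/6d. In MOL5/6b the levels were 239, 242 and 216 CPM, and in MOL5/6c they were 233, 208 and 171 CPM. Ectopic vOLCs were thus lowest in each of the 4 subclusters, but in MOL5/6b, with 30 UMIs in 42 ectopic cells, both intervals included 0, as did that to control vOLCs in MOL5/6c. With the subclusters weighted alike, the log2 ratios were -0.34 to control dOLCs and -0.39 to control vOLCs, short of 1.5-fold in both. Over all clusters with enough counts, the ratio to control dOLCs was below 0 in 10 of 10, from -1.07 to -0.15, with 6 intervals wholly below 0, and the ratio to control vOLCs in 8 of 8, with 3 such intervals. Because the subclusters were defined by expression in these same cells, their shares are not independent of the differences between libraries.

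Kcna2 was lower in ectopic vOLCs as well, and not clearly so within subclusters. In MOL5/6 its levels were 34.1 CPM (31.2 to 37.2), 28.1 CPM (22.3 to 34.9) and 18.6 CPM (16.1 to 21.4), in the same order of libraries. The log2 ratios were -0.87 (-1.12 to -0.63) and -0.59 (-0.97 to -0.20). Pooled Kcna2 was at 34.2 and 50.1 CPM in MOL5/6b and MOL5/6c and at 11.0 and 23.6 CPM in MOL5/6a and MOL5/6d. With subclusters weighted alike the ratio to control dOLCs was 0.01 and that to control vOLCs -0.15. The first rested in part on 5 and 18 ectopic UMIs in MOL5/6b and MOL5/6c, where the ratios were 0.09 and 0.23. In MOL5/6a and MOL5/6d they were -0.84 (-1.65 to 0.01) and -0.14 (-0.54 to 0.26). Of 5 clusters with enough counts against control dOLCs, OPCs among them, 0 had an interval wholly below 0. In MOL2 the order differed, since the level of 8.37 CPM in ectopic vOLCs lay between 5.71 and 9.49 CPM in the controls.

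**Figure D4:**
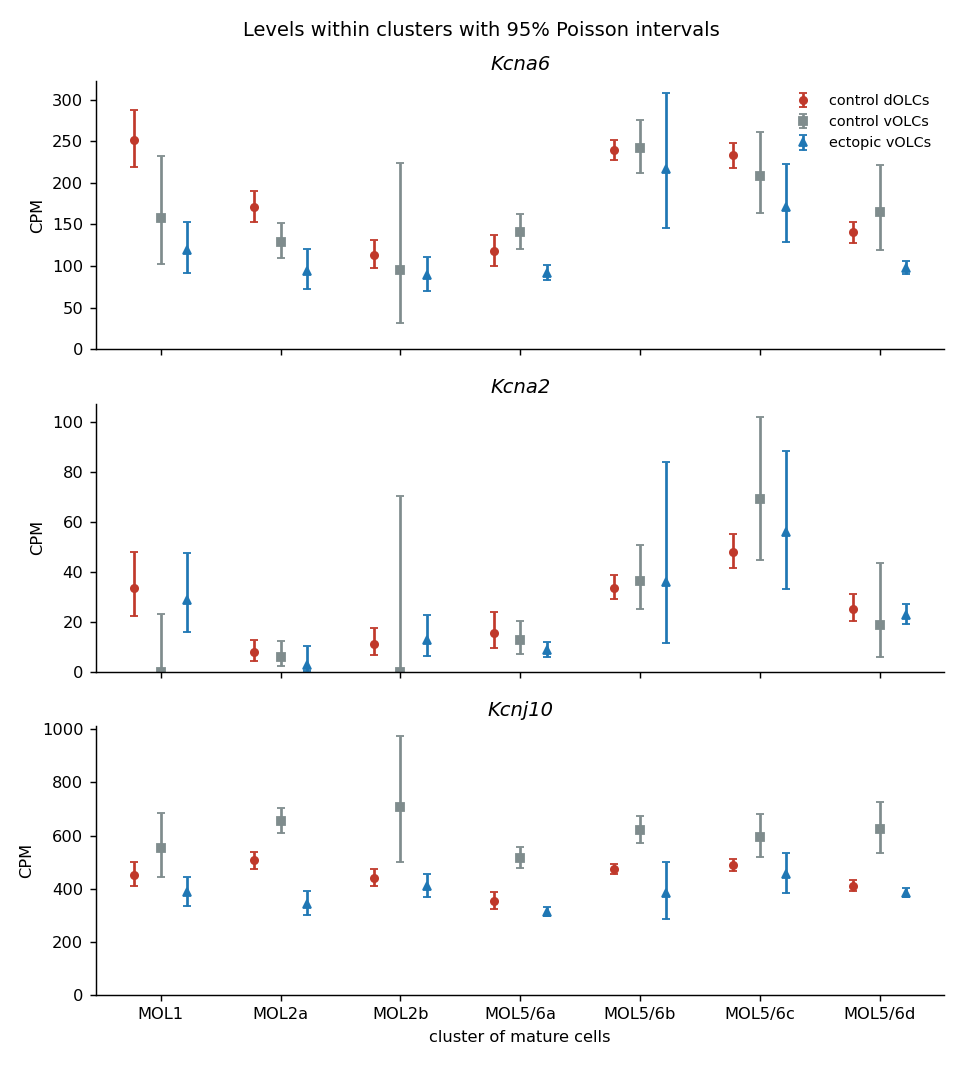
CPM of Kcna6, Kcna2 and Kcnj10 (vertical axes) in the mature clusters MOL1, MOL2a, MOL2b and MOL5/6a to MOL5/6d (horizontal axis), 1 point per library with 95% Poisson intervals. Kcna6 was higher in MOL5/6b and MOL5/6c than in MOL5/6a and MOL5/6d and lowest in ectopic vOLCs within each of these 4, and Kcna2 had the first of these orders but not the second.

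Kcnj10 differed between the control libraries as much as between ectopic vOLCs and control dOLCs. Its MOL5/6 level was 571 CPM (544 to 599) in control vOLCs, 452 CPM (442 to 463) in control dOLCs and 359 CPM (348 to 371) in ectopic vOLCs. Ectopic vOLCs gave a log2 ratio of -0.67 (-0.75 to -0.59) to control vOLCs and of -0.33 (-0.39 to -0.28) to control dOLCs, and control vOLCs exceeded control dOLCs by 0.34 (0.26 to 0.41). MOL2 gave the same order, at 476, 656 and 381 CPM. The ratio of ectopic to control vOLCs was below 0 in 9 of 10 clusters, with 8 intervals wholly below 0, and that of control vOLCs to control dOLCs was above 0 in 10 of 10, with 7 intervals wholly above 0. Against control dOLCs the ectopic ratio was below 0 in 9 of 10 clusters, with 3 intervals wholly below 0, and at 0.26 in the other. With subclusters weighted alike, the ectopic ratios were -0.62 to control vOLCs and -0.17 to control dOLCs.

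In MOL5/6 as a whole, Kcnq3 was graded, and Kcna1 and Kcnk13 were nearly level. Kcnq3 was at 58.0 CPM (54.1 to 62.0) in control dOLCs, with 44.9 CPM (37.5 to 53.2) in control and 34.2 CPM (30.8 to 38.0) in ectopic vOLCs, a log2 ratio of -0.76 to the first and -0.39 to the second. Within MOL5/6a, MOL5/6c and MOL5/6d its ratio to control dOLCs was -0.44, -0.30 and -0.09, each with an interval that included 0. In MOL5/6b it was -1.64 (-3.92 to -0.08), from 3 ectopic UMIs. Over 8 clusters with enough counts that ratio was below 0 in 7, with 4 intervals wholly below 0. The Kcnq3 ratio to control vOLCs was below 0 in 4 of 4 clusters, with 1 such interval. For Kcna1, at 584 CPM (572 to 596), 490 CPM (465 to 516) and 564 CPM (550 to 579), the ratios were -0.05 (-0.10 to -0.00) and 0.20 (0.12 to 0.29). Kcnk13, at 172, 200 and 176 CPM, gave 0.03 and -0.19. MOL5/6a held 8.82% of the MOL5/6 cells of control dOLCs and 48.9% of those of ectopic vOLCs. There the Kcnk13 ratio to control dOLCs was -0.26 (-0.44 to -0.08). In MOL5/6b, MOL5/6c and MOL5/6d it was 0.11, -0.33 and -0.12, each with an interval that included 0. For Kcna1 and Kcnk13 the highest and lowest libraries of MOL5/6 as a whole were both control libraries.

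The other members past 1.5-fold in MOL5/6 were at low levels. Kcnip3 and Kcnj16, both OPC genes, were at 7.61 and 2.56 CPM in control dOLCs and 4.82 and 1.32 CPM in ectopic vOLCs. The 4 OPC markers in MOL5/6 moved with them, at 1.16%, 0.511% and 0.487% of their OPC level in the control dOLC, control vOLC and ectopic vOLC libraries, and their part in the result was not tested. With subclusters weighted alike, the ratio of Kcnip3 to control dOLCs changed sign, to 0.34, which rested on 4 UMIs in the 42 ectopic cells of MOL5/6b. Kcnj2 and Kcnab2, a beta subunit of Kv1 channels, were the others lower against control dOLCs. Kcnj2 gave a log2 ratio of -1.19 (-1.88 to -0.53), from 26 ectopic and 83 control dOLC UMIs. Kcnab2 gave -0.84 (-1.47 to -0.24), from 33 and 83 UMIs. Kcnab1 was at 4.78, 8.90 and 4.82 CPM and Kcnk1 at 6.87, 2.74 and 5.39 CPM, with 8 UMIs of Kcnk1 in control vOLCs and an interval of its ectopic to control vOLC ratio that included 0.

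Transcript length moved with the differences between ectopic vOLCs and both controls. Across 9914 genes, the length of the longest annotated transcript had a Spearman rho of -0.54 with the MOL5/6 log2 ratio of the ectopic to the control dOLC library. It was -0.47 with that to control vOLCs, across 8871 genes, and -0.09 between the control libraries, across 9527 genes. Genes within a library are not independent replicates, and these values describe the libraries. The channel genes are long, with a median of 4031 bases against 3170 for all genes, and 14 of 17 were above the median. Kcna6 has a longest transcript of 5836 bases, Kcnj10 of 5407, Kcna2 of 11582 and Kcnq3 of 11824. When the median ratio of genes of like length was taken off, the members' median to control dOLCs moved from -0.35 to -0.14.

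**Figure D5:**
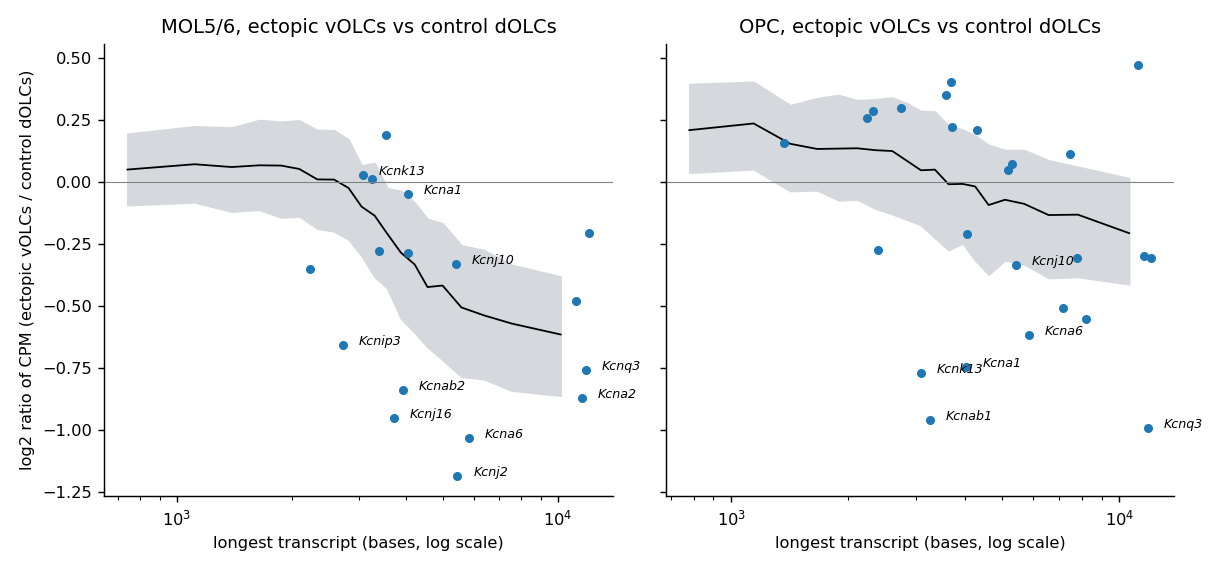
Log2 ratio of CPM between ectopic vOLCs and control dOLCs (vertical axis) against longest transcript length in bases (logarithmic horizontal axis) for MOL5/6 and OPCs. The black line is the median and the grey band the quartiles of all genes in 20 length bins, and blue points are potassium channel genes. In MOL5/6 the bin medians went from 0.05 in the shortest genes to -0.62 in the longest, and Kcna6 lay below the band at its length.

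Relative to genes of like length, Kcna6 was below 0 but no longer 1.5-fold lower, with log2 ratios of -0.52 to control dOLCs and -0.50 to control vOLCs. Among members of low level, Kcnj16, Kcnj2 and Kcnip3 were at -0.74, -0.68 and -0.63 against control dOLCs. Kcna2 was at -0.26 and -0.12, Kcnq3 at -0.14 and 0.08, Kcnj10 at 0.17 and -0.28, Kcnk13 at 0.13 and -0.17, and Kcna1 at 0.29 and 0.44. The plot of ratio against length shows the same, with Kcnq3 and Kcna2 near the band of other long genes. Scaling by TMM factors in place of total UMIs moved the median of all genes from -0.15 to 0.02 and gave -0.86 and -0.74 for Kcna6, -0.16 and -0.52 for Kcnj10 and 0.12 and 0.35 for Kcna1. The signs of Kcna1 and Kcnj10 against control dOLCs therefore rested on the scale, whereas Kcna6 was below 0 on each of these scales.

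Per cell, Kcna6 had a UMI in 52.5%, 58.3% and 41.3% of MOL5/6 cells of control dOLCs, control vOLCs and ectopic vOLCs. At 1000 UMIs per cell the shares were 19.5%, 14.6% and 9.61%. Kcnj10 had shares of 37.4%, 46.5% and 28.8% at that depth and Kcna1 of 43.8%, 39.2% and 42.4%, in the order of their CPM. Every cluster held these genes, so no background share from cells without them can be given.

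In OPCs several genes of mature cells were highest in control dOLCs. Of 25 members compared between ectopic vOLCs and control dOLCs, 5 were at least 1.5-fold lower in the former (Kcna1, Kcna6, Kcnk13, Kcnq3 and Kcnab1) and 0 were as much higher. Over all genes 8.2% were as much lower, 5.52% as much higher and 13.7% either. Against control vOLCs, 3 of 14 were at least 1.5-fold lower (Kcnj10, Kcnj16 and Kcnd3) and 0 higher, where all genes gave 9.77% and 18%, or 27.8% either. Control vOLCs were higher than control dOLCs by that fold in 3 of 22 members and lower in 2, where all genes gave 10.2% and 13.8%, or 24% either. Taken in either direction, the shares were near those of all genes. The members' median log2 ratios were -0.21, -0.16 and 0.28 for the 3 comparisons, where all genes gave 0.04, 0.04 and -0.00. Length moved with the ratios in OPCs too, with a Spearman rho across genes of -0.34, -0.40 and 0.16, and relative to genes of like length the members' medians were -0.09, -0.08 and 0.20. In these comparisons 68, 79 and 71 members had too few counts.

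Kcnj10 had the same order in OPCs as in MOL5/6. Its level was 372 CPM in control vOLCs, 285 CPM in control dOLCs and 225 CPM in ectopic vOLCs. This gave ectopic log2 ratios of -0.72 (-1.02 to -0.42) to control vOLCs and of -0.34 (-0.54 to -0.14) to control dOLCs. At 1000 UMIs per cell the second of these was 0.03. Its partner Kcnj16 was highest in control vOLCs too, at 78.5 CPM (68.1 to 89.9), 162 CPM (125 to 207) and 91.5 CPM (75.2 to 110.3). Control vOLCs exceeded control dOLCs by a log2 ratio of 1.05 (0.62 to 1.46), and ectopic vOLCs were below control vOLCs by -0.83 (-1.28 to -0.36). Against control dOLCs ectopic vOLCs gave 0.22, so that Kcnj16 separated the control libraries and not ectopic vOLCs from control dOLCs. Control vOLCs had 121 OPCs, against 853 and 330 in control dOLCs and ectopic vOLCs.

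Of the abundant A-type and leak genes of OPCs, Kcnip3, Kcnk2, Kcnk1 and Kcnd2 differed by less than 1.5-fold from either control in ectopic vOLCs. Kcnip3 was lowest in control dOLCs, and ectopic vOLCs had a log2 ratio of 0.30 (0.15 to 0.44) to control dOLCs and -0.12 to control vOLCs. Kcnk2 gave 0.35 (0.12 to 0.57) and -0.11, Kcnk1 0.26 and 0.08, and Kcnd2 0.05 and -0.16. Kcnd3 was at 65.1, 86.1 and 45.8 CPM, with ratios of -0.51 to control dOLCs and -0.91 (-1.56 to -0.25) to control vOLCs.

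Of the mature-type channels in OPCs, Kcna1, Kcnk13 and Kcna6 were highest in control dOLCs, as were the mature markers. Kcna1 was at 115, 68.4 and 68.2 CPM, Kcnk13 at 36.9, 15.2 and 21.6 CPM and Kcnq3 at 28.2, 38.0 and 14.1 CPM. Kcna6 was at 98.3, 78.5 and 64.0 CPM, with a log2 ratio of control vOLCs to control dOLCs of -0.32 (-0.91 to 0.22). Between ectopic vOLCs and control dOLCs the log2 ratio was -0.75 (-1.12 to -0.39) for Kcna1, -0.77 for Kcnk13, -1.0 (-1.85 to -0.22) for Kcnq3 and -0.62 (-1.0 to -0.25) for Kcna6. The mature markers Mog, Mag, Mal and Mobp summed to 2660, 1135 and 1127 CPM in the same OPCs, and their part in the result was not tested. Kcnq3 was highest in control vOLCs, but from 15 UMIs and with a log2 ratio to control dOLCs of 0.43 (-0.48 to 1.24). Its order between the controls was thus not resolved by the counts. Kcnk13 had 6 UMIs in OPCs of control vOLCs and 26 in those of ectopic vOLCs.

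Other genes that move potassium or hold Kv channels in place were described from a list of 32. Of the 20 with enough counts for the stages, 6 were at least 2-fold higher in MOL5/6 than in OPCs in each library (among them Atp1b3, Slc12a2, Hcn2, Cntn2 and Gjb1) and 7 lower (among them Atp1b1, Atp1b2, Slc12a4, Dpp6 and Dpp10), where all genes gave 5.18% and 25.6%. Between MOL5/6 of ectopic vOLCs and control dOLCs, 7 of 18 were at least 1.5-fold lower in the former (among them Slc12a2, Slc12a4, Hcn2, Cntn2, Atp1b1 and Dpp6) and 0 higher, where all genes gave 19.9% and 1.8%. Against control vOLCs, 4 of 15 were lower, where all genes gave 16.4%. Slc12a2, the sodium, potassium and chloride importer NKCC1, was at 602, 548 and 315 CPM in MOL5/6. Hcn2, a pacemaker channel subunit, was at 833, 878 and 519 CPM. Cntn2, the adhesion molecule that gathers Kv1 channels at juxtaparanodes, was at 607, 490 and 328 CPM. The gap junction gene Gjb1, with 496, 569 and 554 CPM, was within 1.5-fold in the 3 libraries. The medians over the listed genes were -0.38 to control dOLCs and -0.30 to control vOLCs, where all genes gave -0.15 and -0.09. These values for the listed genes were not adjusted for transcript length or for the makeup of MOL5/6.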

How the data were processed

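The 3 sorted P90 libraries (10x Genomics 3′ v2 chemistry) were used. The deposited values were UMI counts per gene and cell, made by the authors with Cell Ranger (2.1.1 per the submitters' processing notes) against mm10, with clusters assigned in Seurat (3 and 4.0 are both listed). The authors kept cells with more than 200 and fewer than 3000 genes, and the deposited mitochondrial percent per cell was at most 15. Barcodes numbered 6192, 1039 and 2850, of which those with a deposited cluster were kept, with 23078181, 4846391 and 14293675 UMIs. Columns of counts that matched no sample numbered 0. The authors discarded another cohort for batch effects, and 4 P0 samples whose group the labels do not give were not analysed here.

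From the counts, UMIs were summed per cell type and library and scaled to CPM of all genes. Log2 ratios compare genes with at least 50 UMIs in the pair, with conditional exact binomial 95% intervals, and levels have exact Poisson intervals. A count of 0 was set at 3 counts. Thresholds were 1.5-fold between libraries and between MOL2 and MOL5/6, and 2-fold between MOL5/6 and OPCs. With 1 library per group there was no test. Genes were named if they reached 20 CPM and 50 UMIs in a pooled cell type, differed at least 1.5-fold the same way from both controls, or were in a list of 9, and any other named gene was chosen after its values were seen. Some genes of these lists and 1 sequence are not reported here, and the counts include those genes. The members and all gene lists were chosen with earlier results of these data known. No doublets were removed. An alternative left out the 6% of cells with the most UMIs, and others changed scaling, filter, cell weighting, depth (1000 UMIs per cell), mitochondrial limit (10%), length and subcluster weights. Gene positions, lengths and sequences came from GENCODE M21 (GRCm38), which matched 26646 of 27998 genes by symbol and all 93 members. The scripts were tested on simulated counts. Python 3.11.15, numpy 2.4.6, scipy 1.17.1, pandas 2.3.3, matplotlib 3.10.9, Biopython 1.88, R 4.3.3, edgeR 4.0.16 (TMM factors) and DESeq2 1.42.0 (size factors) were used.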

Additional observations from a re-analysis of the deposited data

How the results depend on the processing

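With 1 library per group, no replicate spread is known, and cohort, animal, sort and library cannot be told apart from the group. No paired analysis was possible because each group has a single library. Counts of members past a fold depended mostly on the filter. The count for MOL5/6 of ectopic vOLCs against control dOLCs, 7 as reported, was 19 with no filter and 3 when a UMI in 10% of cells was required, at 1000 UMIs per cell, or relative to genes of like length. Against control vOLCs, the 5 became 15 with no filter, 2 relative to length, and 3 with TMM factors, with size factors, with the 10% filter, at 1000 UMIs per cell and with subclusters weighted alike. Between the control libraries, the 4 became 18 with no filter and 0 with the 10% filter and at 1000 UMIs per cell. In OPCs, the 5 for ectopic vOLCs against control dOLCs became 20, 2 and 1 under the same 3 alternatives. The 3 against control vOLCs became 21 with no filter, and the 5 between control libraries became 22 with no filter and 3 with the 10% filter. At 1000 UMIs per cell, 12 in place of 19 members were 2-fold apart between MOL5/6 and OPCs and 1 in place of 4 was apart between MOL2 and MOL5/6. The causes were not tested beyond the fewer or more genes compared. Of 597 ratios of single named genes under an alternative, 39 had another sign than the reported ratio, of which 37 were reported as less than 1.5-fold. The other 2 were Kcnip3 (0.34) and Kcna2 (0.013) in MOL5/6 of ectopic vOLCs against control dOLCs with subclusters weighted alike. Of 57 medians 4 moved, and of 126 shares of cells with a UMI 120 moved when cells were thinned. Levels that rest on few UMIs have wide counting intervals, and the number of UMIs behind a level differs between cell types and libraries. Pooled Kcnip3 in MOL5/6 was at 6.18 CPM (5.30 to 7.16) from 175 UMIs. Kcnk13 in OPCs of control vOLCs was at 15.2 CPM from 6 UMIs.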
